A study of Mus musculus with 42 samples.

Results

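The genes described here are the molecular chaperones of the HSP70, HSP90, HSP40 and chaperonin families in mouse tibialis anterior (TA) muscle. They were taken by gene symbol from the table of normalized counts: the HSP70 and HSP110 genes (Hspa and Hsph1), the HSP90 genes, the mitochondrial pair Hspd1 and Hspe1, the HSP40 genes (Dnaja, Dnajb and Dnajc), the subunits of the cytosolic chaperonin TRiC (Tcp1 and the Cct genes), the adaptors St13 and Stip1, and the regulator Hsf1. The rule itself uses only symbols, but the families were chosen with earlier results of these data known, and the small heat shock proteins were not included. The rule found 67 of the 13809 genes in the table, and all 67 passed the filter on low values in both sets. By the usual location of their proteins, 41 are cytosolic or nuclear, 14 belong to the endoplasmic reticulum (ER), 8 are mitochondrial, and 4 (Dnajc4, Dnajc13, Dnajc27 and Dnajc28) were left unplaced. In the GENCODE M21 annotation 66 are protein coding, and Cct6a is listed there as a processed transcript.

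RNAseq was carried out on TA muscle of male C57BL/6J mice 4 months of age, in 42 libraries that fall into 11 groups and 2 sets. Set 1 held WT mice, Sesn1SkM-Tg mice, which carry human Sesn1 under the muscle promoter MCK, and Sesn2SkM-Tg mice, which carry a Tet-regulated Sesn2 transgene switched on by a transactivator under MCK. Set 2 held WT mice and Sesn1KO mice, which are Sesn1-/-. Each genotype was studied in the basal state and 3 days after immobilization of a hindlimb, and WT muscle of set 2 also 3 days after denervation by cutting out a piece of the sciatic nerve. There were 4 libraries in a group, except 3 for immobilized WT muscle of set 1 and 3 for immobilized Sesn1SkM-Tg muscle. The labels number the samples of a group but do not tie each to its own animal, so the p-values measure the spread between these samples. All levels are compared within a set. RNA of a whole muscle was measured, in which fewer cells of a type and less RNA per cell cannot be told apart.

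HSP70 proteins bind short hydrophobic stretches of unfolded chains and release them in a cycle driven by ATP. HSP40 proteins, which share the J domain, bring clients to HSP70 and start its ATP hydrolysis, while HSP110 proteins and other exchange factors reset it. HSP90 acts later, on nearly folded clients such as kinases, steroid receptors and, in muscle, myosin, and TRiC is a closed barrel that folds actin and tubulin. Each compartment has its own machinery: BiP (Hspa5) and Grp94 (Hsp90b1) in the ER, and mortalin (Hspa9) with the HSP60/HSP10 chamber (Hspd1 and Hspe1) in mitochondria. Hsf1 is the main transcription factor of the cytosolic heat shock response, and Xbp1, Atf6 and Atf4 are those of the unfolded protein response of the ER.

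Before the chaperones, the labels and the libraries were checked. Sesn1 lay at 8.41 to 10.05 in basal Sesn1KO muscle against 22.5 to 29.7 in the WT muscle of that set, but in immobilized muscle the values overlapped, at 19.4 to 37.3 in Sesn1KO and 30.7 to 53.1 in WT. The highest Sesn1KO value, of replicate 1, was above that of 1 WT library, so Sesn1 does not check the labels of the immobilized state, which were used as given, and which part of the gene the remaining reads came from was not analysed here. The Sesn1 value was 23.0 to 77.6 in Sesn1SkM-Tg libraries against 12.4 to 22.1 in WT of set 1, and the Sesn2 value 6.54 to 14.5 in Sesn2SkM-Tg against 1.86 to 3.39. Summed over all genes, a library reached 722430 to 1276769, and denervated muscle had the lowest sums of set 2 (722430 to 811541 against 1042064 to 1099736 in basal WT). The 5 fast fiber markers, all at high level, had a summed value of 101318 to 118294 in basal WT, 89330 to 100389 in immobilized WT and 43075 to 56563 in denervated WT of set 2. After denervation 5 of 5 were lower, beside 27.7% of all genes. The 6 macrophage markers summed to 34.6 to 51.7 in basal and 162 to 341 in immobilized WT of set 1, where 6 of 6 were higher (14.9% of all genes). In set 2 they summed to 27.7 to 129, 94.5 to 190 and 40.3 to 108 in basal, immobilized and denervated WT. There 2 of 6 were higher after immobilization and 1 of 6 after denervation (16.2% and 27.8% of all genes). None of these markers was at 0 in any library. Immobilized Sesn1KO replicate 1 stood apart, with a summed level of 5 immediate early genes of 494 against 101 to 208 in the other 3 libraries of its group. The part of these differences in the results for the chaperones was not tested.

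After denervation, 45 of the 67 chaperone genes were called against basal WT muscle (55.5% of all genes tested), 33 of them higher and 12 lower, where 27.8% of all genes were higher and 27.7% lower. Calls required limma to give an adjusted p under 0.05 and a log2 fold change of 0.25 or more in either direction, and the median log2 fold change of the chaperones was 0.37 against -0.03 for all genes. After immobilization in the same set 34 were called (33.9% of all genes), 24 higher and 10 lower (16.2% and 17.7%), with a median of 0.19. Compared directly, denervated and immobilized muscle differed in 38 chaperones (38.9% of all genes), 29 higher and 9 lower in denervated muscle (20.5% and 18.4%). Denervated and immobilized muscle were each set against the same 4 basal libraries. Non-overlap of libraries was common: after denervation 36 chaperones were higher and 11 lower without overlap, beside 53.7% of all genes. After immobilization these were 24 and 13 (32.5% of all genes), and between denervated and immobilized muscle 31 and 10 (37.6%). Of the 41 cytosolic or nuclear genes 22 rose and 6 fell after denervation, of the 14 ER genes 8 rose and none fell, and of the 8 mitochondrial genes 3 rose and 3 fell.

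These counts rest on the scale of the deposited values, on which the median gene did not move. When each library was scaled to the same sum, the median of all genes shifted up by 0.38 for denervation and the chaperone split became 50 higher and 7 lower, with a median of 0.82. For immobilization in set 2 the same scaling gave 35 higher and 8 lower, and for denervated against immobilized muscle 42 higher and 4 lower, with a shift of all genes of 0.28. All genes shifted too, and their share of calls is not given beside these splits. The splits alone therefore do not show whether the change was particular to the chaperones. Summed over the 67 genes, chaperones made up 0.568% ± 0.016 of the deposited signal in basal WT, 0.777% ± 0.063 in immobilized WT and 1.23% ± 0.093 in denervated WT of set 2 (SD, n = 4 each). The shares of the 3 groups did not overlap. The summed values of the 67 genes were 5982 to 6293 in basal, 6740 to 8269 in immobilized and 8905 to 10220 in denervated WT. A share also rises when the library sum falls, and that sum was 1042064 to 1099736 in basal and 722430 to 811541 in denervated WT.

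**Figure D1:**
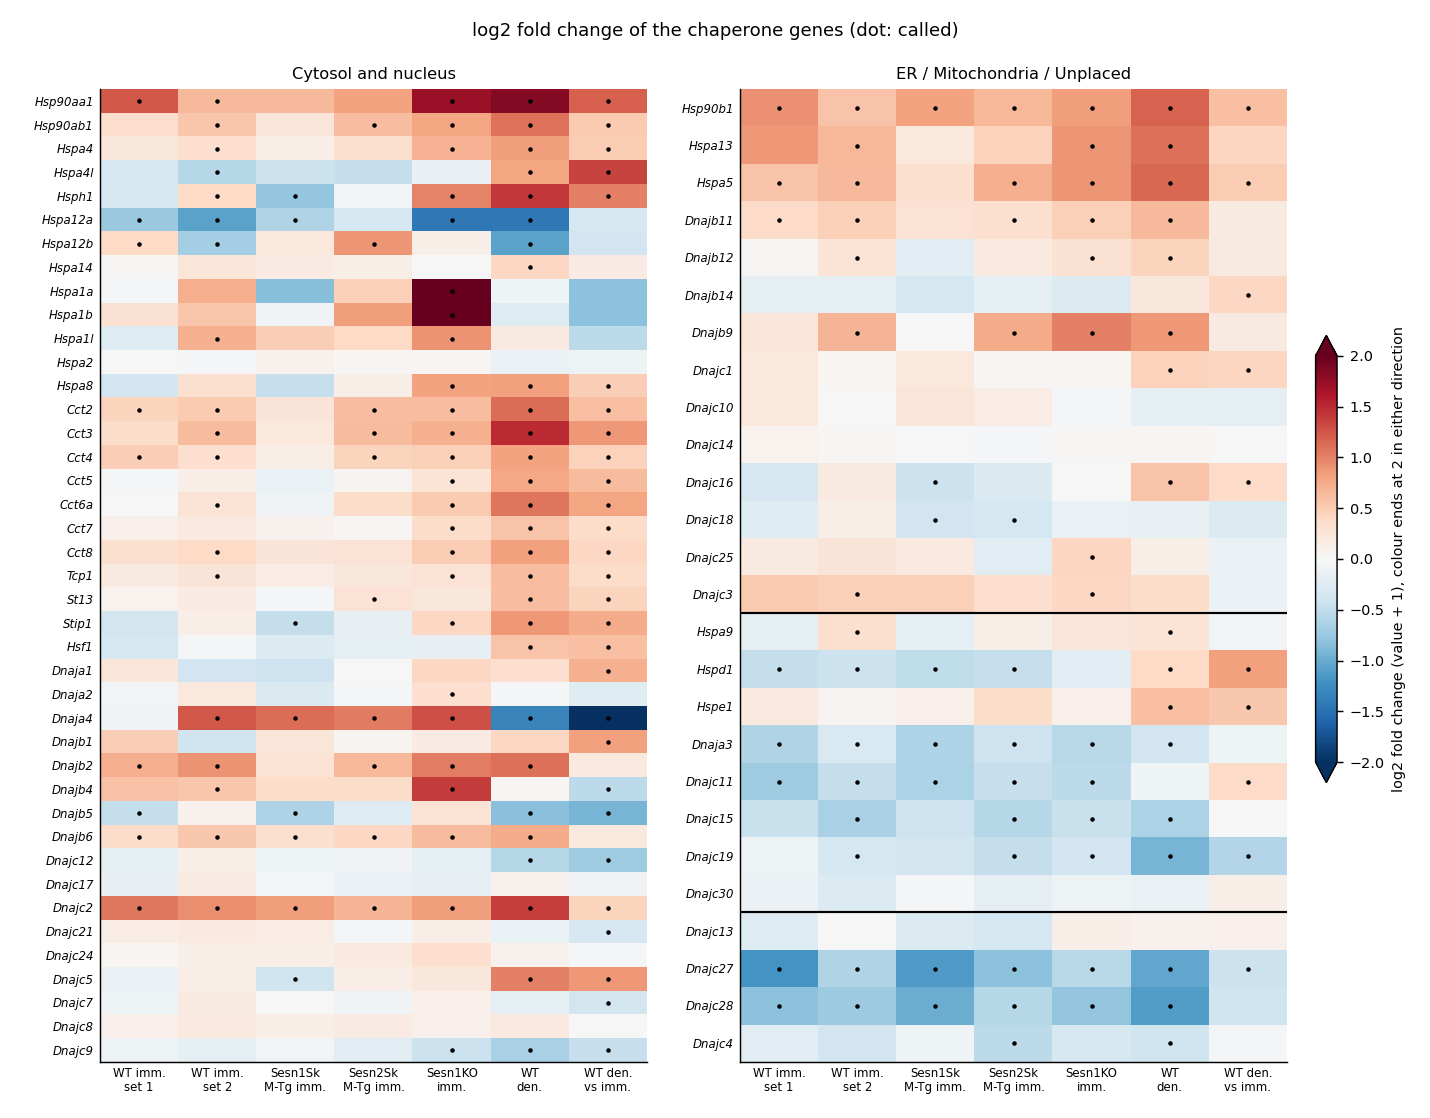
Heat map of the log2 fold change of each of the 67 chaperone genes (rows, grouped by compartment) in 7 comparisons (columns), with colour ending at an absolute value of 2 and a dot for each call. In the denervation column 33 genes are called higher and 12 lower, and the TRiC block is called higher throughout.

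Hsp90aa1, the inducible cytosolic HSP90, had the highest log2 fold change of all chaperones after denervation. Its values were 43.5, 38.0, 45.9 and 50.1 in basal WT, 61.3, 76.3, 79.2 and 62.9 in immobilized WT and 166, 178, 154 and 147 in denervated WT of set 2. The 3 groups did not overlap. Denervation raised it by 1.84 ± 0.23 on the log2 scale (SE; adjusted p = 8.79e-07, limma), a fold of 3.58, and immobilization by 0.64 ± 0.23 (adjusted p = 0.0369), a call that was kept in 3 of the 8 fits that left out a library. Its constitutive partner Hsp90ab1 went from 932 ± 23.4 in basal to 1975 ± 182 in denervated WT muscle (SD, n = 4 each; log2 fold change 1.08, adjusted p = 1.21e-09). Per kilobase of exon, Hsp90ab1 stood first among the 67 genes in basal WT muscle of set 2, at 311 ± 7.82, and Hsp90aa1 31st, at 11.3 ± 1.29. After denervation the order between them was the same, with 659 ± 60.7 for Hsp90ab1 and 41.0 ± 3.47 for Hsp90aa1, then in place 15.

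**Figure D2:**
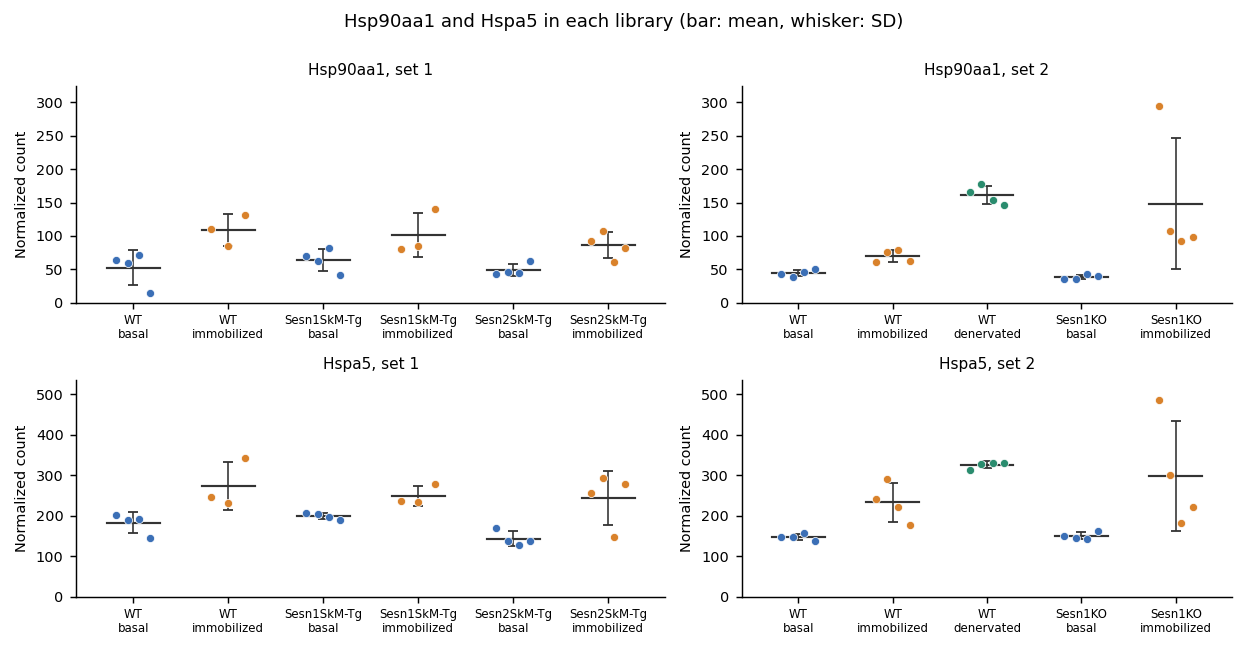
Normalized counts (linear axis) of Hsp90aa1 and Hspa5 in every library of the 11 groups, with a point for each library, a bar at the group mean and whiskers of 1 SD. The denervated WT libraries sit at 147 to 178 for Hsp90aa1 and 313 to 331 for Hspa5, above all basal libraries, and immobilized Sesn1KO replicate 1 is the highest point of both genes, at 295 and 486.

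The HSP70 genes of the cytosol did not move as a block. Hspa8, the constitutive HSC70 and second per kilobase in basal WT muscle, lay at 931 to 1074 in basal and 1527 to 1960 in denervated WT muscle, without overlap (log2 fold change 0.81 ± 0.15, adjusted p = 9.11e-05). The stress-inducible Hspa1a and Hspa1b, classical heat shock genes, were not called after denervation, with log2 fold changes of -0.08 and -0.26, and their summed value was 3.86 to 11.2 in basal and 4.54 to 10.7 in denervated muscle. These neighbouring genes on chromosome 17 (Hspa1a at 34969190 to 34972156 and Hspa1b at 34956436 to 34959238, minus strand, GRCm38) are nearly identical, so reads may have been split between them, and their sum is the firmer value. Hspa14, which works at the ribosome, rose by 0.41 with denervation, while Hspa1l (0.18) and Hspa2 (-0.13), both known from testis, were not called, and Hspa2 was called in no comparison. The atypical HSP70 genes Hspa12a and Hspa12b fell with denervation. Hspa12a went from 6.93 to 8.12 in basal muscle to 1.58 to 2.65 after denervation (log2 fold change -1.42, adjusted p = 8.09e-07). Hspa12b, known from endothelium, went from 16.4 to 25.2 to 7.49 to 9.76 (-1.07, adjusted p = 1.45e-05). The 4 endothelial markers fell with it, 4 of 4, beside 27.7% of all genes. Their sum went from 227 to 292 in basal to 118 to 151 in denervated WT muscle, and their part in the Hspa12b values was not tested.

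All 3 HSP110 genes, the exchange factors of HSP70, rose after denervation. Hsph1 was at 65.4, 59.8, 66.2 and 63.8 in basal, 67.8, 86.4, 89.4 and 94.99 in immobilized and 174, 185, 171 and 155 in denervated WT muscle. No library of a group overlapped with another group, and the log2 fold change of denervation was 1.41 ± 0.13 (adjusted p = 6.64e-09). Hspa4 rose by 0.83. Hspa4l changed in opposite directions, from 8.45 to 9.54 in basal muscle down to 5.34 to 6.26 after immobilization (log2 fold change -0.57, adjusted p = 0.00845) and up to 13.2 to 20.5 after denervation (0.78, adjusted p = 0.000259). The adaptors that link HSP70 to HSP90 rose as well, Stip1 (HOP) by 0.87 and St13 (HIP) by 0.62. Hsf1 lay at 28.9 to 34.0 in basal, 28.1 to 33.6 in immobilized and 42.7 to 51.4 in denervated muscle, so that only the denervated group stood apart (0.57 ± 0.12, adjusted p = 0.000579).

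All 8 measured TRiC subunits were called higher after denervation, and also against immobilized muscle. The 3 HSP90 genes, the 3 HSP110 genes, Hspd1 with Hspe1, both adaptors and Hsf1 were likewise called higher in both comparisons. The summed value of TRiC was 730 to 801 in basal, 838 to 1034 in immobilized and 1295 to 1533 in denervated WT of set 2. Cct3 was highest in fold, with 63.1, 59.2, 60.2 and 76.7 in basal, 97.2, 114, 113 and 80.7 in immobilized and 188, 201, 176 and 170 in denervated muscle. The 3 groups did not overlap (denervation 1.49 ± 0.11, adjusted p = 3.83e-10, a fold of 2.82). The other log2 fold changes of denervation were 1.12 for Cct2, 1.07 for Cct6a, 0.82 for Cct8, 0.81 for Cct4, 0.77 for Cct5, 0.62 for Tcp1 and 0.56 for Cct7. The lowest of them, Cct7, still moved from 102 to 109 in basal to 145 to 168 in denervated muscle (adjusted p = 1.54e-06). After immobilization in set 2 there were 6 of 8 subunits higher, by 0.26 for Tcp1 to 0.63 for Cct3, and Cct5 (0.13) and Cct7 (0.20) were not called. The calls of Tcp1 and Cct6a were kept in 4 of the 8 fits that left out a library.

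**Figure D3:**
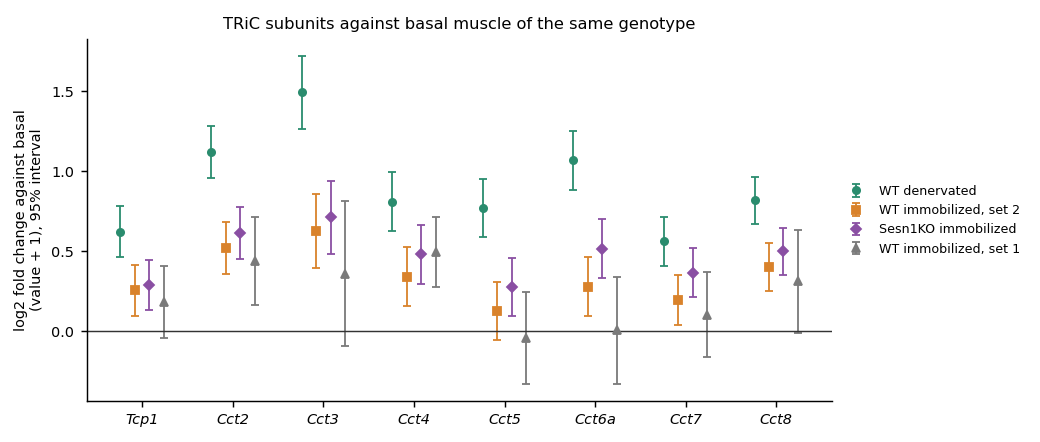
Log2 fold change of the 8 TRiC subunits with its 95% interval, for denervated WT, immobilized WT of set 2, immobilized Sesn1KO and immobilized WT of set 1, each against its own basal group. Denervation gives the highest value for every subunit, from 0.56 for Cct7 to 1.49 for Cct3, and immobilized WT of set 1 has 2 called subunits.

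In the ER, the HSP70 and HSP90 genes rose in both models of set 2. Hspa5 (BiP) was at 146, 146, 156 and 137 in basal, 242, 290, 221 and 176 in immobilized and 313, 327, 331 and 331 in denervated WT muscle. The 3 groups did not overlap, with log2 fold changes of 0.64 ± 0.19 for immobilization (adjusted p = 0.0139) and 1.15 ± 0.19 for denervation (adjusted p = 3.53e-05). The direct difference between denervated and immobilized muscle was 0.51 (adjusted p = 0.0431) and was called in 1 of the 8 fits that left out a library. Hsp90b1 (Grp94) rose by 0.58 and 1.18, from 96.1 ± 7.73 in basal to 144 ± 18.6 and 220 ± 16.6 (SD, n = 4 each). Hspa13, a microsomal HSP70, rose by 0.67 and 1.09. Of the 11 ER members of the HSP40 family, 5 rose after denervation and none fell. They were Dnajb9 (0.86), an inducible partner of BiP, Dnajb11 (0.65), Dnajc16 (0.56), Dnajc1 (0.47) and Dnajb12 (0.45). Dnajc3 (p58IPK), a BiP cochaperone, went from 38.3 to 46.1 to 48.4 to 57.2 and was not called (0.37), although it was called after immobilization (0.48), where its values of 41.5 to 88.9 overlapped the basal ones and its call was kept in 3 of the 8 fits that left out a library.

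For the ER genes the sequence before the start site could be read beside these values. RefSeq promoters (GRCm38.p6, 250 bases before to 50 after the start) were found for 53 of the 67 members and were searched on both strands for the ER stress element, written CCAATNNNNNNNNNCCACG, and for a heat shock element of 3 alternating units, written GAANNTTCNNGAA. The ER stress element was in 3 of the 12 ER members with a promoter (25.0%), in no other member, and in 0.137% of the genes with a promoter. These were Hspa5, Hsp90b1 and Dnajc3, of which the first 2 rose after denervation and Dnajc3 was not called. The 220 bases before the start of each are shown 5′ to 3′ on the strand of the gene, with the match in capitals; in Hsp90b1 the second match is on the opposite strand.
Hspa5 (chr2:34771870-34772089, plus strand): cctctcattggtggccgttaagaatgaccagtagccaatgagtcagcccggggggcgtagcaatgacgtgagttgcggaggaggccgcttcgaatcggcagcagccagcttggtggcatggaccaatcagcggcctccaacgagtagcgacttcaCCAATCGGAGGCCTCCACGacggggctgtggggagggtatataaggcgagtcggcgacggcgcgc
Hsp90b1 (chr10:86705445-86705664, minus strand): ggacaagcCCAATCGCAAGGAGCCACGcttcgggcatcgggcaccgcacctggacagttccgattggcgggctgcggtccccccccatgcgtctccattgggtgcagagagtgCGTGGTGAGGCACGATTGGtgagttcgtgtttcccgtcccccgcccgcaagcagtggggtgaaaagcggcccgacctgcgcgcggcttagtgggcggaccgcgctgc
Dnajc3 (chr14:118937712-118937931, plus strand): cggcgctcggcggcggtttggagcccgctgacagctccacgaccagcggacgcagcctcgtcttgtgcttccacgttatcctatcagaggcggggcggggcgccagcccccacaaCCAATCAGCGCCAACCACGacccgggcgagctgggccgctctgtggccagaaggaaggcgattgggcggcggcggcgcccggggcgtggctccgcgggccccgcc
The match begins 65 bases before the start in Hspa5, 212 and 107 in Hsp90b1, and 105 in Dnajc3. A match describes these letters and not the binding of a factor.

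ER folding genes that are no members were read beside them. Of 22 such genes 16 rose and 1 fell after denervation (27.8% and 27.7% of all genes), with a median log2 fold change of 0.87, and 8 rose and none fell after immobilization in set 2 (16.2% and 17.7% of all genes), with a median of 0.32. Xbp1, a transcription factor of the unfolded protein response, went from 34.6 to 41.6 in basal to 111 to 133 in denervated muscle (log2 fold change 1.60, adjusted p = 1.64e-08), the disulphide isomerases P4hb and Pdia6 rose by 1.59 and 1.43, and the lectin chaperone Canx by 1.45. The gene that fell was Ddit3 (CHOP), which acts late in ER stress (-1.16, adjusted p = 1.35e-05). Atf4 rose by 0.41, Atf6 by 1.04, and the sensors Eif2ak3 (0.02) and Ern1 (-0.12) were not called.

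The mitochondrial chaperones differed among themselves in direction. Hspd1 (HSP60) was at 207, 190, 201 and 177 in basal, 139, 149, 145 and 143 in immobilized and 244, 274, 260 and 242 in denervated WT muscle. The 3 groups did not overlap: Hspd1 fell by 0.43 on the log2 scale after immobilization (SE 0.07, adjusted p = 9.94e-05) and rose by 0.39 after denervation (SE 0.07, adjusted p = 7.46e-05). Its lid Hspe1 (HSP10) lay at 44.6 to 48.7 in basal and 44.9 to 55.7 in immobilized muscle, which overlapped, and at 68.8 to 75.6 in denervated muscle (0.59, adjusted p = 4.71e-06). Hspa9 (mortalin) rose in both, by 0.33 and 0.27, with calls kept in 7 and 5 of the 8 fits that left out a library. All 3 genes called lower after denervation were of the HSP40 family: Dnajc19 (-0.94), a part of the import motor, Dnajc15 (-0.64) and Dnaja3 (-0.39). Dnajc11, a cristae protein, fell with immobilization (-0.47) and was not called after denervation (-0.08). The median of the 8 genes was -0.11 for denervation and turned to 0.34 when each library was scaled to the same sum, with 4 higher and 1 lower.

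Hspd1 and Hspe1 lie head to head on chromosome 1 (Hspd1 at 55077835 to 55088243 on the minus strand, Hspe1 at 55088132 to 55091307 on the plus strand, GRCm38), so that their promoter windows overlap and hold the same heat shock elements. The element was found in 4 of the 53 members with a promoter (7.55%), against 0.662% of all genes with a promoter. These were Hspd1, Hspe1, Dnajb6 and Hsph1, the last with its match after the start, which is not shown. Hspa1a, Hspa1b and Dnajb1 had no match to these letters. No promoter was found for Hsp90aa1, Hsp90ab1 and Hspa8, so they were not searched. The 220 bases before the start of Hspd1 and of Dnajb6 are given with the matches in capitals, since the denervation and immobilization values of Hspd1 differ in direction.
Hspd1 (chr1:55087933-55088152, minus strand): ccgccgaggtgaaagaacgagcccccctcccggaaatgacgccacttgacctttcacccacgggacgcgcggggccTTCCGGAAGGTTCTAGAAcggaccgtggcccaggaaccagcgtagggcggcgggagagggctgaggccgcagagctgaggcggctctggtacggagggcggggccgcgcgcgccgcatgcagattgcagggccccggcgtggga
Dnajb6 (chr5:29735678-29735897, plus strand): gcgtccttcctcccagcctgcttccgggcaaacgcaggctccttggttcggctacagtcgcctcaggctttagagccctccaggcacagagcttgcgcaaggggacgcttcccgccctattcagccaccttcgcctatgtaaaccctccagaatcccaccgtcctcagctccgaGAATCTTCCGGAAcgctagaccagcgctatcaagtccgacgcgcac
The matches of Hspd1 overlap each other and lie 144 to 127 bases before the start used here, and that of Dnajb6 lies 46 to 34 bases before. Both genes have another listed start. The window of the other Hspd1 start held no match, and from the other Dnajb6 start the match lies 127 to 115 bases before. After denervation Hspd1, Hspe1, Dnajb6 and Hsph1 were all called higher, beside 33 of the 67 members and 27.8% of all genes. After immobilization of set 2 Hspd1 was lower, Hspe1 was not called and Dnajb6 (0.53) and Hsph1 (0.39, called in 5 of 8 fits that left out a library) were higher. Hspd1 and Hspe1 share their elements, and a part of the elements in these values was not tested.

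**Figure D4:**
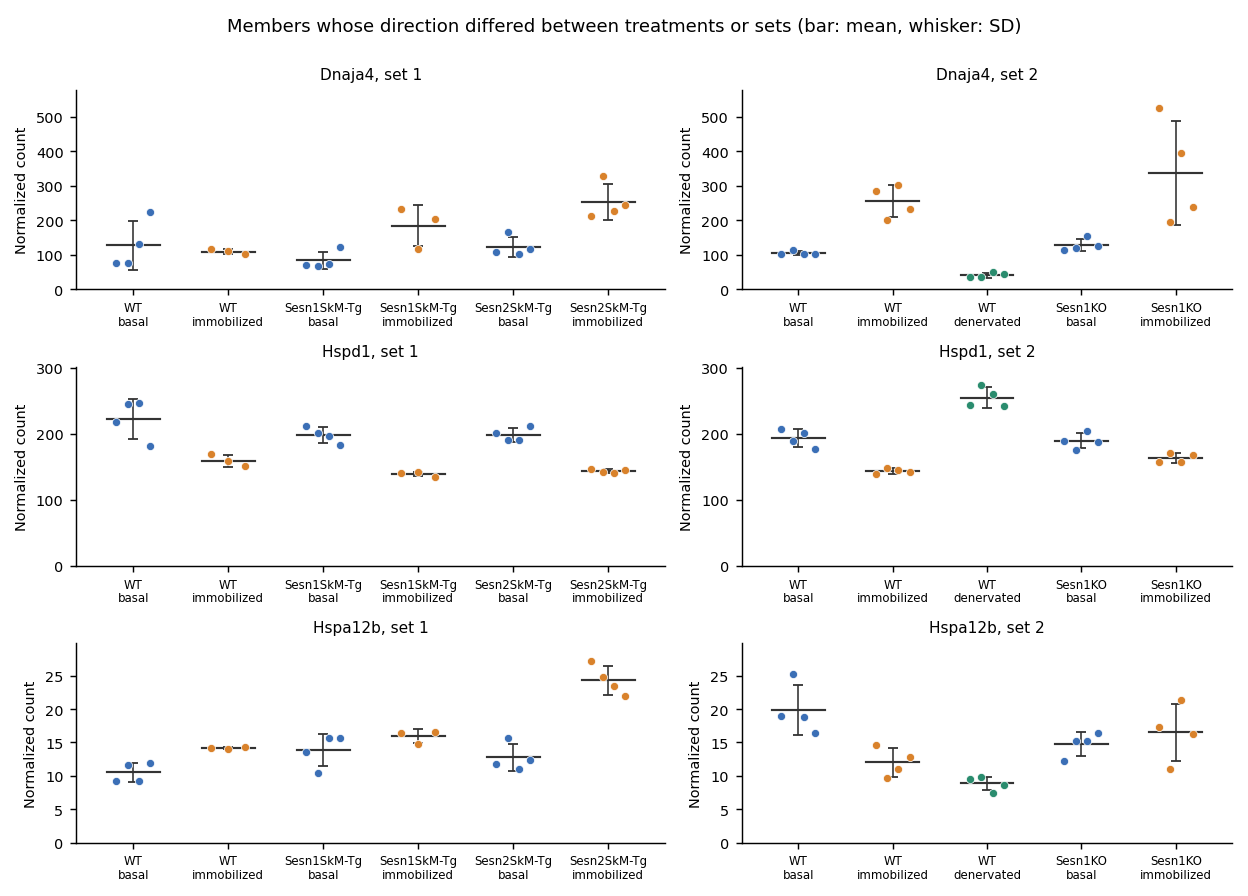
Normalized counts (linear axes) of Dnaja4, Hspd1 and Hspa12b in every library of the 11 groups, with a point for each library, a bar at the group mean and whiskers of 1 SD. In set 2, immobilized WT libraries lie above basal and denervated ones below basal for Dnaja4 (202 to 301, 103 to 113 and 34.5 to 50.5), while the order is turned for Hspd1.

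Among the 17 cytosolic HSP40 genes 4 rose and 4 fell after denervation, near the 27.8% and 27.7% of all genes. Those that rose were Dnajc2 (1.38), which works at the ribosome, Dnajb2 (1.09), best known from neurons, Dnajc5 (1.01), the cysteine string protein of vesicle release, and Dnajb6 (0.74), a chaperone of the Z-disc. Those that fell were Dnaja4 (-1.34), Dnajb5 (-0.83), Dnajc9 (-0.66), a histone chaperone, and Dnajc12 (-0.57). Dnaja4, a cochaperone of HSP70 on chromosome 9 (54698873 to 54716315, GRCm38), had the widest span, with 103, 113, 104 and 103 in basal, 284, 202, 301 and 233 in immobilized and 34.5, 36.4, 50.5 and 44.6 in denervated muscle. It rose by 1.25 ± 0.21 with immobilization (adjusted p = 0.000128) and fell by 1.34 on the log2 scale with denervation (SE 0.21, adjusted p = 1.81e-05), a direct difference of -2.59 (adjusted p = 7.74e-09). The inducible HSP40 genes Dnaja1 (0.33) and Dnajb1 (0.41) were not called against basal muscle, but both were higher in denervated than in immobilized muscle (0.72 and 0.82). Of the unplaced genes, Dnajc27 (-1.04), Dnajc28 (-1.12) and Dnajc4 (-0.40) fell after denervation, and Dnajc4 was called in 2 of the 8 fits that left out a library, with an adjusted p of 0.126 in limma without denervated replicate 3.

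Immobilization was repeated in set 1, in which fewer chaperones were called. In WT muscle 17 were called (29.3% of all genes), 10 higher and 7 lower (14.9% and 14.5%), with a median log2 fold change of 0.02 against 0.00 for all genes. The split depended on the scale: scaled to the same sum, with a shift of all genes of 0.28, it was 29 higher and 2 lower, and the count fell to 7 without immobilized WT replicate 3. For neither setting is the share of all genes called given here, so these counts are not read as particular to the chaperones. The highest were Hsp90aa1 (1.24), Dnajc2 (1.06) and Hsp90b1 (0.92), and the lowest Dnajc27 (-1.20), Dnajc28 (-0.82) and Hspa12a (-0.75), the last called in 4 of the 7 fits that left out a library. Hsp90aa1 was at 63.8, 59.3, 72.1 and 14.2 in basal and 110, 84.5 and 132 in immobilized WT, so that basal replicate 4 was far below the others (log2 fold change 1.24, adjusted p = 0.0177). Without that replicate the log2 fold change was 0.72, and without immobilized replicate 3 the call was lost (adjusted p = 0.0937). Hspa5 rose from 145 to 202 to 232 to 342 (0.57, adjusted p = 0.0291), a call kept in 5 of the 7 fits that left out a library. Hspd1 fell from 182 to 247 down to 151 to 169 (-0.47, adjusted p = 0.00298), but scaled to the same sum this was -0.13 and no longer called (adjusted p = 0.449). Of TRiC, Cct4 (0.50) and Cct2 (0.44, called in 5 of 7 fits that left out a library) rose and the other 6 were not called. The median of the mitochondrial genes was -0.31, and 0.02 when scaled to the same sum.

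The sets were then compared directly for the immobilization effect in WT muscle. In this test 6.2% of all genes and 3 of the 67 chaperones differed, namely Dnaja4, Hspa12b and Hspa9. For Hspa12b, an endothelial HSP70 relative, basal values of 9.23, 11.7, 9.26 and 11.9 and immobilized values of 14.1, 14.0 and 14.3 in set 1 were set against 18.9, 25.2, 18.8 and 16.4 and 14.6, 9.63, 11.03 and 12.7 in set 2. The groups separated in both sets, in opposite directions: 0.40 in set 1 (adjusted p = 0.0446, called in 2 of 7 fits that left out a library) and -0.68 in set 2 (adjusted p = 0.00335). Such groups did not overlap for 33.8% of all genes in set 1 and 32.5% in set 2. The difference was 1.08 (adjusted p = 0.00324) and was called in 15 of 15 fits that left out a library. In parallel, the 4 endothelial markers summed to 151 to 213 in basal and 191 to 237 in immobilized WT of set 1, and to 227 to 292 and 133 to 219 in set 2. Of these markers 1 was higher and 1 lower in set 1 (14.9% and 14.5% of all genes), and 3 were lower in set 2 (17.7%). Their part in the Hspa12b values was not tested. For Dnaja4 the basal values of set 1 spread from 75.4 to 225 around the immobilized ones (101 to 117), and the difference between the sets (-1.31, adjusted p = 0.0363) was called in 7 of 15 fits that left out a library. For Hspa9 it was -0.50 (adjusted p = 0.0283), called in 10 of 15.

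Immobilized muscle of the other genotypes was compared with its own basal muscle. In Sesn1SkM-Tg 16 chaperones were called (34.7% of all genes), 4 higher and 12 lower (18.2% and 16.5%). In Sesn2SkM-Tg 23 were called (30.7%), 14 higher and 9 lower (15% and 15.7%), and in Sesn1KO 39 (37.1%), 31 higher and 8 lower (17.2% and 19.9%). The first 2 splits changed with the scale, to 11 and 8 and to 20 and 6 under quantile normalization, and to 24 and 4 and to 29 and 1 under scaling to the same sum, which shifted all genes by 0.26 and 0.25. Shares of all genes called under these scalings are not given beside them. The 4 higher in Sesn1SkM-Tg were Dnaja4 (1.11), Dnajc2 (0.84), Hsp90b1 (0.80) and Dnajb6 (0.33), and the lowest were Dnajc27 (-1.13), Dnajc28 (-0.99) and Hsph1 (-0.77). Of these, Dnajb6 kept its call in 1, Dnajc2 in 4 and Hsp90b1 and Hsph1 in 6 of the 7 fits that left out a library. In Sesn2SkM-Tg the highest were Dnaja4 (1.03), Hspa12b (0.89) and Dnajb9 (0.74), and the lowest Dnajc27 (-0.82), Dnajc15 (-0.58) and Dnajc28 (-0.57), with Dnajb9 called in 5 and Dnajc28 in 2 of the 8 fits that left out a library. Hspd1 fell in both transgenics (-0.51 and -0.46), and was not called in either when scaled to the same sum. In Sesn1KO the 8 TRiC subunits all rose, by 0.28 for Cct5 (called in 6 of 8 fits that left out a library) to 0.71 for Cct3, and 8 of 14 ER genes rose and none fell.

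Immobilized Sesn1KO replicate 1 had by far the highest level of the inducible cytosolic chaperones. Hspa1a and Hspa1b together were at 6.00, 6.77, 9.42 and 6.74 in basal and 574, 27.7, 29.7 and 19.2 in immobilized Sesn1KO muscle, and Hsp90aa1 at 36.2, 36.0, 42.3 and 39.6 and 295, 107, 92.5 and 97.8. All immobilized libraries lay above all basal ones in both measures, in a comparison where 32.2% of all genes did not overlap. The log2 fold changes were 2.39 for Hspa1a (adjusted p = 0.00558), 3.04 for Hspa1b (adjusted p = 0.00083) and 1.73 for Hsp90aa1 (adjusted p = 5.68e-06), and without replicate 1 they were 1.28, 1.94 and 1.34, each still called. Dnajb4, an HSP40 of heart and muscle, was at 49.6 to 70.2 in basal and at 265, 144, 119 and 107 in immobilized muscle (1.40, and 1.12 without replicate 1). Without this library the split was 29 higher and 8 lower, with 35.3% of all genes called, and 7 TRiC subunits higher. Replicate 1 was also the library with the high immediate early genes, and the part of that difference was not tested.

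**Figure D5:**
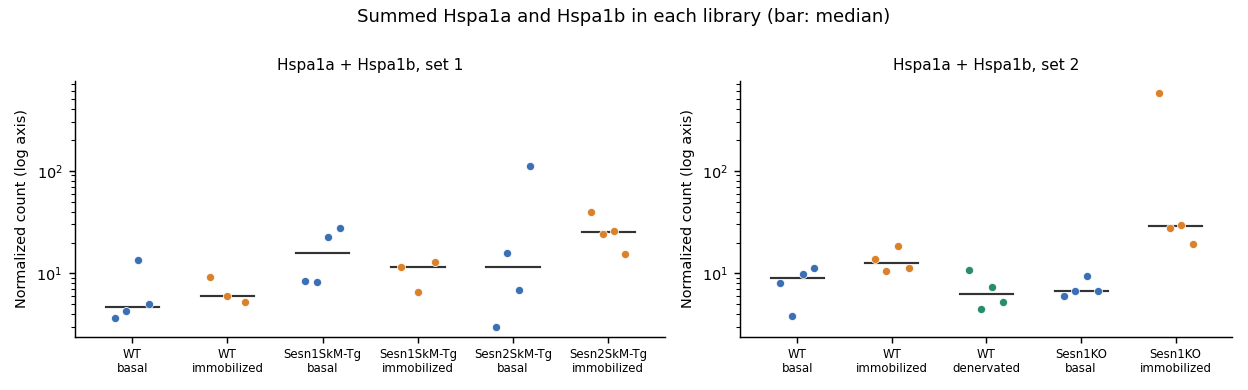
Summed normalized counts of Hspa1a and Hspa1b on a log axis in every library of the 11 groups, with a point for each library and a bar at the group median. Immobilized Sesn1KO replicate 1 lies at 574 and basal Sesn2SkM-Tg replicate 4 at 111, against 3.04 to 39.8 in the other 40 libraries.

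Between genotypes in the same state, few chaperones were called. Sesn1SkM-Tg and WT differed in 0 of 67 in the basal and 0 of 67 in the immobilized state (0.0292% and 0.0073% of all genes), with 4 and 1 at an unadjusted p under 0.05 in limma. Sesn1KO and WT also differed in 0 of 67 in both states (0.147% and 0.947% of all genes), with 2 and 15 at an unadjusted p under 0.05. Without overlap of libraries, 2 members were higher and 3 lower in the basal state (4.16% of all genes). In the immobilized state 7 were higher and 1 lower (4.22% of all genes). In the immobilized state, Hsp90aa1 was 0.89 higher in Sesn1KO (adjusted p = 0.0674), and without replicate 1 the difference was 0.50 and called (adjusted p = 0.0447), the single call among the 67 genes where 0.433% of all genes were called. Leaving out immobilized Sesn1KO replicate 2 or 3 instead also gave 1 call each, Hsp90aa1 or Hspa4, and leaving out replicate 4 gave 4, which were Hsp90aa1, Hspa4, Hspa1b and Dnajb4. Sesn2SkM-Tg and WT differed in 0 of 67 in the basal state (2.5% of all genes, with 10 members at an unadjusted p under 0.05), and 3 without basal WT replicate 4 of set 1, namely Dnajb1, Dnajc4 and Dnajc19. In the immobilized state 2 of 67 were higher in Sesn2SkM-Tg and none lower (2.94% of all genes called, 1.65% higher and 1.29% lower).

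These 2 genes were Hspa12b and Dnaja4. Hspa12b was at 27.1, 24.8, 23.4 and 22.0 in immobilized Sesn2SkM-Tg and 14.1, 14.0 and 14.3 in immobilized WT, without overlap (0.74 ± 0.15, adjusted p = 0.0125), and it was called in all 7 fits that left out a library. Between these groups 13 members were higher and 3 lower without overlap, beside 18.7% of all genes. The endothelial markers summed to 228 to 310 in these Sesn2SkM-Tg libraries and to 191 to 237 in WT, which was not tested as a part of the difference. Dnaja4 was at 212, 329, 227 and 244 in Sesn2SkM-Tg and 117, 111 and 101 in WT (1.18 ± 0.31, adjusted p = 0.0407), but it was called in 0 of the 7 fits that left out a library and not under quantile normalization (adjusted p = 0.054). The test of whether the immobilization effect differed from that of WT called 0 of 67 chaperones for each genotype, with 3 members at an unadjusted p under 0.05 for Sesn1SkM-Tg, 3 for Sesn2SkM-Tg and 10 for Sesn1KO. Of all genes it called 0%, 0.0073% and 0.022%.

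Cochaperones that are no members were read beside the chaperones. Of 28 such genes 11 rose and 7 fell after denervation, beside 27.8% and 27.7% of all genes, and 3 rose and 5 fell after immobilization in set 2, beside 16.2% and 17.7%. The numbers that fell were near these shares in both comparisons. Ptges3 (p23), which closes the HSP90 cycle, rose in all 4 genotypes with immobilization, by 0.43 to 0.76 over the 5 comparisons, and by 0.97 with denervation. The HSP90 activators Ahsa1 (0.54) and Ahsa2 (0.92) and the HSP70 exchange factor Bag3 (0.68) rose with denervation, and Hsf2, a relative of Hsf1, rose by 0.95 with immobilization and 0.73 with denervation in set 2. Fkbp5, an HSP90 cochaperone and known target of glucocorticoids, was lower after denervation (-1.31, adjusted p = 0.000103) and not called after immobilization in set 2 (0.28). Smyd1, a muscle methyltransferase that works with HSP90 on myosin, was lower in both (-1.68 and -0.57). The cyclophilin Ppid had the order of Hspd1, with -0.77 after immobilization and 0.61 after denervation. Of 13 other genes of mitochondrial proteostasis 3 rose and 2 fell after denervation, not above the shares of all genes, among them the protease Htra2 (0.80) and the protease subunit Spg7 (-0.71).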

How the data were processed

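TA muscle RNA was sequenced by the authors, who trimmed reads with cutadapt 1.7.1, quantified them against the mouse transcriptome (GRCm38, Ensembl release 76) with RSEM 1.2.20 and normalized them with limma, per the paper's methods and the submitters' processing notes. The deposited signal is a normalized count per gene, linear and close to CPM in size. The read depth is unknown, so no counting error could be given, and the step that brought the sets together is not given in the sources used here. No column of the table was left out.

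Values were analysed as log2(value + 1) with limma 3.58.1 (R 4.3.3, lmFit and eBayes with trend), in 1 fit per set over all its groups and over genes that reached 1 in any library of it. Fold changes are on that scale, which understates those of low genes. P-values were two-sided and adjusted by Benjamini-Hochberg over all genes tested (13705 in set 1 and 13629 in set 2). The difference between the sets was tested in 1 further fit over all 42 libraries. P-values of that fit were adjusted over the 13763 genes that reached 1 in any library. This test was chosen after seeing the data, as were the counts without immobilized Sesn1KO replicate 1. Scripts were tested on simulated data. Members and gene lists were chosen with earlier results of these data known.

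Genes named were Hsp90aa1, Hspa5, all members other than HSP40 genes, the 3 called members with the largest change in each direction of a comparison, and all called members where 5 or fewer were called. Other HSP40 genes and the list genes were named as examples after their values were seen. Alternatives tried were no filter, a filter of 1 in 3 libraries, a pseudocount of 0.1, quantile normalization, scaling to the same sum, a replicate block, only the compared groups, a log2 fold change of at least 1, and leaving out each library.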

Additional observations from a re-analysis of the deposited data

Results flagged for a closer look

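A library was marked when its gap to the nearest of the others, divided by the range of its group, passed Dixon's 95% critical value, which chance passes in about 1 in 20 groups. Of 99 pairs of a group and a measure tested, 8 were marked. Immobilized Sesn1KO replicate 1 was high for Hsp90aa1 (295, others 92.5 to 107) and for the sum of Hspa1a and Hspa1b (574, others 19.2 to 29.7). Basal Sesn2SkM-Tg replicate 4 was high for the same measures, at 62.1 (others 42.6 to 45.4) and 111 (others 3.04 to 15.9). The sum of Hspa1a and Hspa1b was also high in basal WT replicate 3 of set 1 (13.5, others 3.72 to 5.07). Dnaja4 was high in basal Sesn1SkM-Tg replicate 4 (122, others 68.5 to 74.2) and in basal WT replicate 2 of set 2 (113, others 103 to 104). Cct3 was high in basal Sesn1SkM-Tg replicate 3 (98.4, others 77.4 to 80.8).

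The immobilization effect of WT muscle differed between the sets, by the test of the difference, for Dnaja4 (-1.31, set 1 minus set 2), Hspa12b (1.08) and Hspa9 (-0.50).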

How the results depend on the processing

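No call of a named gene reversed its direction under any alternative. Scaled to the same sum, the median of the mitochondrial genes turned from -0.11 to 0.34 for denervation and from -0.31 to 0.02 for immobilized WT in set 1, and the split of immobilized Sesn1SkM-Tg from 4 higher and 12 lower to 24 and 4. Of the 134 pairs of a named gene and a comparison in which it was called, 134 kept their call without a filter, with a filter of 3 libraries and with a pseudocount of 0.1, 126 under quantile normalization, 124 scaled to the same sum, 130 with the replicate block, 125 with only the compared groups and 30 at a log2 fold change of at least 1. Of 1050 fits of such a pair without a library, 959 kept the call. Depth is unknown and limits what can be said of low genes such as Hspa1a and Hspa1b.

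The count of chaperones called after immobilization of WT in set 1 was 17, and 31 scaled to the same sum, 8 with only the compared groups and 3 at a log2 fold change of at least 1. At that fold it was 2 of 34 for immobilized WT in set 2, 17 of 45 for denervation, 4 of 38 for denervated against immobilized, 2 of 16 for Sesn1SkM-Tg, 1 of 23 for Sesn2SkM-Tg and 8 of 39 for Sesn1KO. For Sesn1SkM-Tg it was 28 scaled to the same sum. For Sesn2SkM-Tg against WT, the basal count of 0 became 1 scaled to the same sum, and the immobilized count of 2 became 1 under quantile normalization, 1 at a log2 fold change of at least 1 and 4 with only the compared groups. Without 1 library the counts ranged from 7 to 18 for WT in set 1, 26 to 36 for WT in set 2, 43 to 45 for denervation, 33 to 38 for denervated against immobilized, 9 to 14 for Sesn1SkM-Tg, 14 to 21 for Sesn2SkM-Tg and 37 to 43 for Sesn1KO. They ranged from 0 to 3 for Sesn2SkM-Tg against WT in the basal state, were 1 in each fit in the immobilized state, and ranged from 0 to 4 for Sesn1KO against WT in the immobilized state. The lowest values were without immobilized WT replicate 3 (7), immobilized Sesn1SkM-Tg replicate 3 (9) and immobilized Sesn2SkM-Tg replicate 2 (14). Shares of all genes called under these settings are not given beside these counts. The counts alone do not show whether a change was particular to the chaperones. The causes were not tested.

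Correlations between same-numbered libraries in their deviations from the group means were -0.45 to 0.53 in set 1 (18 of 51 above 0.1) and -0.24 to 0.24 in set 2 (6 of 40), and 4 of these 6 were the 4 pairs of immobilized Sesn1KO with denervated WT, groups that are not compared here. Not every pair of libraries in compared groups was above 0.1, so the numbers were not taken as pairs. With the replicate block the counts were 14, 35, 45, 38, 13, 22 and 40 in the order of the 7 comparisons above, 1 for Sesn2SkM-Tg against WT in the immobilized state, and 0 in the other comparisons.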

Other observations

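The genes most like Hsp90aa1 across libraries, by the mean of the correlations of log2 values within each set (22 and 20 libraries), were Hsp90b1 (0.93), Sept2 (0.91), Hspa13 (0.91), the nucleolar gene Nop58 (0.90) and the ESCRT ATPase Vps4b (0.89). Those most like Hspa5 were Xbp1 (0.92), Pdia6 (0.91), Hsp90b1 (0.89), Vimp (0.88), also known as selenoprotein S, and Atp6ap2 (0.86). The libraries of a set share their groups, so these values describe groups and libraries together. The remaining marker lists were also read. Of 5 fibroblast markers 3 were higher after immobilization of WT in set 1, 0 in set 2 and 5 in Sesn1SkM-Tg. Beside these, 14.9%, 16.2% and 18.2% of all genes were higher. After denervation 2 of the 5 were lower, beside 27.7% of all genes. Of 5 immediate early genes 3 were higher after immobilization of WT in set 2, 2 after denervation and 0 after immobilization of WT in set 1. Beside these, 16.2%, 27.8% and 14.9% of all genes were higher. The summed values of these 5 genes were 66.6 to 101 in basal, 109 to 303 in immobilized and 209 to 289 in denervated WT of set 2.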
